A study of Mus musculus with 23 samples.

Results

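Adult muscle was set against the most advanced muscle cells that the study made in culture: 3 samples of quadriceps muscle and 3 samples of myotubes after 4 days of differentiation, 6 of the 23 samples of the series. They were chosen by their source labels, and all genes on the array were considered. The single skeletal muscle sample of a NOD mouse was left out. Myotubes are the multinucleate fibres that form when myoblasts fuse. Here they came from male C57BL/6J primary myoblasts that had reached confluence, were placed on Matrigel and were kept for 4 days in a medium with 2% horse serum. The titles of myotube replicates 1, 2 and 3 carry the numbers 21, 26 and 28. The quadriceps samples were also male. Replicate 1 is labelled C57BL/6J, and replicates 2 and 3 are labelled 129Sv/C57BL/6J, so the strain differs in part between the groups. Neither the age of the mice nor the number of animals behind a sample is given. The series as a whole follows DNA methylation and expression from embryonic stem cells through myoblasts to mature fibres, and this comparison covers its last step, from cultured myotube to muscle.

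A myotube in culture has switched on the contractile program but has no nerve, no load and no blood supply. In the animal, fibres mature after birth: embryonic and neonatal forms of the sarcomere proteins give way to adult fast or slow forms, the acetylcholine receptor gathers under the nerve ending and exchanges its fetal subunit for an adult one, and the membrane system that couples excitation to calcium release is completed. Whole muscle also holds vessels, blood, connective tissue, fat and nerve, which a culture of myogenic cells may lack. It holds satellite cells as well, the stem cells of muscle.

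RNA was measured on 1-colour Agilent mouse arrays from 100 ng of total RNA. Levels are given as log2 of the processed signal after subtraction of the 75th percentile of its array, so 0 is the level of that percentile and 1 unit is a 2-fold difference. Levels of different genes rest on different probes and are not compared. Of the spots that were not controls, 39.1% to 53.1% were well above background on the myotube arrays and 43.6% to 54% on the quadriceps arrays, and none was saturated. The 75th percentile was 208, 440 and 580 intensity units in the myotube samples and 348, 343 and 261 in the quadriceps samples. Across genes, myotube samples correlated with each other at r of 0.931 to 0.968, quadriceps samples at 0.963 to 0.977, and samples of different groups at 0.792 to 0.83. The number of arrays limits the precision, and the median SD of a gene was 0.509 among the myotubes and 0.324 among the quadriceps samples. The labels do not say whether replicates are separate animals or cultures, so the p-values reflect only scatter within groups, which may be technical. That scatter was pooled per gene over the 7 groups and 21 samples of the fit, so it also reflects samples outside this comparison.

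Nearly 1 gene in 3 differed. Of 18550 genes tested with limma, 2827 were higher in quadriceps and 3131 lower. A call needed an adjusted p (Benjamini-Hochberg) below 0.05 together with a change of 2-fold or more. The calls are 15.2% and 16.9% of the genes tested, and 32.1% in either direction. Every count below is read against these shares, and "rose", "fell", "higher" and "lower" describe quadriceps relative to myotubes. The median change of all genes tested was -0.06 on the log2 scale. The groups did not overlap in 8678 genes, 46.8% of those tested. A change of at least 10-fold was found in 788 higher and 598 lower genes. Of the higher genes, 481 were above background in no myotube sample, and of the lower genes, 294 were above background in no quadriceps sample, and such genes are given a lower bound ("at least") in place of a fold.

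**Figure D1:**
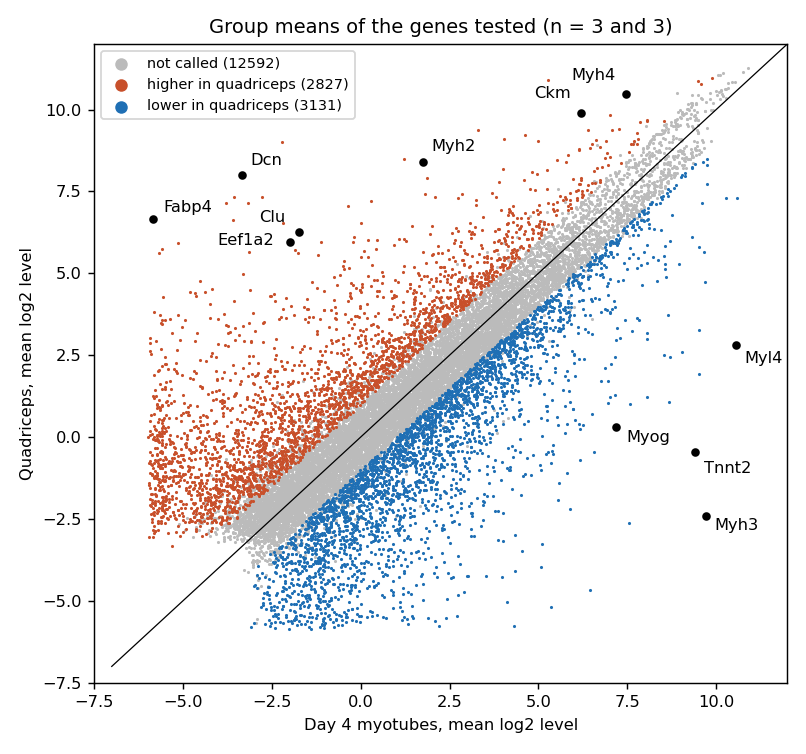
Mean log2 level of each tested gene in day 4 myotubes (x axis) and quadriceps (y axis), n = 3 samples each, relative to each array's 75th percentile. The 2827 genes called higher (orange) and 3131 called lower (blue) are drawn over the genes not called (grey), the line marks equal levels, and Myh3, Tnnt2, Myl4 and Myog lie far below it while Fabp4, Dcn, Clu and Eef1a2 lie far above.

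Among genes measured above background in all 6 samples, the 10 largest rises and the 10 largest falls held genes of several functions. Clu, which encodes the secreted chaperone clusterin, rose 255-fold, from -0.85, -2.28 and -2.11 in the myotubes to 6.22, 6.15 and 6.39 in the quadriceps (adjusted p from limma 4e-07). Mlxipl, the glucose-responsive transcription factor ChREBP, rose 169-fold, and Synm, the intermediate filament protein synemin, 135-fold. Lgalsl, a galectin-like gene, rose 117-fold and the kinase gene Wnk2 109-fold. On the other side, Rassf7 fell 176-fold, from 5.69, 5.44 and 5.5 to -1.55, -1.95 and -2.25. Ndrg4 fell 129-fold, the microtubule-associated kinase gene Dclk1 128-fold and the beta tubulin gene Tubb2b 119-fold. Only called genes whose groups did not overlap entered this ranking, so the distance between the groups follows from the choice.

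The list of embryonic and neonatal sarcomere genes had the most negative median change of all lists. It also holds genes that are not of the sarcomere. These are the acetylcholine receptor subunits Chrna1, Chrnd and Chrng, the adhesion genes Ncam1 and Cdh15, and the smooth muscle genes Acta2 and Tagln. Of 19 tested, 13 fell and none rose, and the median log2 change was -5.13. Myh3 encodes embryonic myosin heavy chain, the motor protein of the earliest fibres. Its level was 9.76, 9.7 and 9.64 in the myotubes and 0.4, -4.45 and -3.2 in quadriceps replicates 1, 2 and 3, a log2 change of -12.12 with a standard error of 0.76 (adjusted p from limma 2.5e-09). It was above background in 1 of the 3 quadriceps samples, the C57BL/6J one, and a second probe of the gene gave a change of -11.87.

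Cardiac troponin T, Tnnt2, is made transiently by immature skeletal fibres. Its level was 9.77, 9.48 and 8.99 in the myotubes and 1.05, -1.4 and -0.98 in quadriceps, a 925-fold fall (adjusted p 6.9e-10). The embryonic light chain Myl4 stood at 11.41, 10.31 and 9.92 against 3.21, 2.18 and 3.08, a 212-fold fall. In both genes the lowest myotube sample lay over 6 log2 units above the highest quadriceps sample. The light chain Myl6b fell 64.3-fold, the stretch-responsive sarcomere gene Ankrd1 35.1-fold, smooth muscle actin Acta2 19.1-fold and cardiac actin Actc1 7.84-fold. For Actc1 the quadriceps samples were uneven, at 8.47, 4.94 and 8.52, and with the C57BL/6J sample alone its call was lost (adjusted p 0.13).

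Not every gene on this list fell. Myh8, the neonatal myosin heavy chain, stood at 10.82, 9.51 and 9.84 in the myotubes and 10.85, 10.97 and 11.29 in quadriceps, a difference of 0.98 that was not called (adjusted p 0.11). Myh8, Myh1 and Myh4 are near-identical neighbours in the genome, and how far the probe of one detects the others is not known here, so the levels of these 3 are uncertain. The intermediate filament gene Des, with a change of -0.61, and Tagln, with -0.08, overlapped between the groups.

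The acetylcholine receptor of the fetal fibre and most genes of the neuromuscular junction list also fell. Chrna1, Chrnd, Chrng and Ncam1, given here, are members of the embryonic sarcomere list, so the lists are not independent. Of 23 junction genes tested, 14 fell and 2 rose, with a median log2 change of -2.01. Chrng, the fetal gamma subunit, stood at 4.09, 3.52 and 4.3 in the myotubes and was not above background in any quadriceps sample, a fall of at least 168-fold (adjusted p from limma 2.4e-09). Chrna1, the alpha subunit that binds acetylcholine, fell 77.5-fold, from 8.61, 8.6 and 8.92 to 2.56, 1.55 and 3.2. The delta subunit Chrnd fell 94-fold and the beta subunit Chrnb1 6.79-fold.

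Chrne, the epsilon subunit that takes the place of gamma in the adult receptor, stood at -1.69, -1.18 and -0.96 in the myotubes and -0.9, -0.83 and -0.13 in quadriceps. The groups did not overlap, but the difference of 0.66 with a standard error of 0.71 was not called (adjusted p 0.51). Genes that organise the junction fell as well. Musk, the kinase that receives the nerve's signal, fell 4.02-fold, its partner Lrp4 7.22-fold and the clustering protein Rapsn 2.32-fold. Runx1, a transcription factor known from denervated muscle, fell 31.8-fold and the adhesion molecule Ncam1 53.3-fold. Cd24a, a surface glycoprotein, rose 5.08-fold and Hdac4, a histone deacetylase that responds to innervation, rose 2.86-fold. In bulk samples, less RNA per cell and fewer cells of a kind cannot be told apart.

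Myogenic factors such as Myod1 and Myog bind E-boxes, and promoters of receptor and contractile genes are known targets. The window from 250 bases before to 50 bases after the start of each gene in the RefSeq promoter table of build GRCm38.p6 was searched for the E-box CAGCTG, which reads the same on both strands. A second motif, the sterol response element TCACNCCAC, was searched on both strands for the sterol genes described below. Both motifs were chosen after the list results were known, and each was counted over 16 gene sets beside all promoters. The 250 bases before the start are shown for 5 genes whose levels moved in different ways, with each E-box in capitals and all other bases in lower case, 5′ to 3′ on the strand of the gene. They are the fetal receptor subunit Chrng at chr1:87205561-87205810 on the plus strand, Chrna1 at chr2:73580339-73580588 on the minus strand, the adult subunit Chrne at chr11:70619195-70619444 on the minus strand, the muscle creatine kinase Ckm at chr7:19410844-19411093 on the plus strand and the fast myosin Myh4 at chr11:67237562-67237811 on the plus strand.
Chrng: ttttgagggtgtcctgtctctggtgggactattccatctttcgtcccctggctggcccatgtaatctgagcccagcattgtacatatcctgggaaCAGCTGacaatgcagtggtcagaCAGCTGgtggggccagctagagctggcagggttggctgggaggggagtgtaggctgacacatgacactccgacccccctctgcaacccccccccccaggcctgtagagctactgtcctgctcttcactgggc
Chrna1: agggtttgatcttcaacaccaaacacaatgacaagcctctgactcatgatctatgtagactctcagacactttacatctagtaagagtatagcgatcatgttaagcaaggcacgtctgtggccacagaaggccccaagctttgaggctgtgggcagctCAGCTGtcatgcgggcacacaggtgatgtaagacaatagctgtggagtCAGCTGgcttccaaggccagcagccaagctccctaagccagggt
Chrne: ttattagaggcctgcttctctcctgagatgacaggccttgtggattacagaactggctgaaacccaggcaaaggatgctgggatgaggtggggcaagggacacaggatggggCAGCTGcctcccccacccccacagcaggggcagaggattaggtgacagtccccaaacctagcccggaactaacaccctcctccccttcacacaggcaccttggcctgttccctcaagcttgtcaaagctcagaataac
Ckm: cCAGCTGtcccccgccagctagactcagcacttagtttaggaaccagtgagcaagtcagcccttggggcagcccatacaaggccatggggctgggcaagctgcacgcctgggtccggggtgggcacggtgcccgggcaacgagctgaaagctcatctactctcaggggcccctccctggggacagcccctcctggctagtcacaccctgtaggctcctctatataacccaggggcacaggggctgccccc
Myh4: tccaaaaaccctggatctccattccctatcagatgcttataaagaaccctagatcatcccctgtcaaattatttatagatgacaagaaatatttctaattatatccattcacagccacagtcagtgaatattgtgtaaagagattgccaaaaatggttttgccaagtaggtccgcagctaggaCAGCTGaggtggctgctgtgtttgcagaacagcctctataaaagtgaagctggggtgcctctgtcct

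Chrng held the E-box at 155 and 132 bases before its start and Chrna1 at 92 and 44. Chrne held it once, at 138 bases, Myh4 at 67 and Ckm at 249. Of all 27025 promoters, 18.3% held the E-box. It was found in 5 of 11 matched promoters of genes of the embryonic sarcomere list that fell. Of junction genes that fell 4 of 9 held it, with Chrna1 and Chrng counted in both. It was also found in 5 of 10 promoters of adult fast fibre genes that rose and in 9 of 21 of glycolysis and glycogen genes that rose. Of all tested fast fibre genes with a matched promoter 10 of 17 held it, called or not. Of all tested glycolysis and glycogen genes with a matched promoter 14 of 40 held it, called or not. It was found in 0 of 7 promoters of glycolysis and glycogen genes that fell, in 3 of 10 of sterol genes that fell and in 12.1% of complex I promoters. Over all tested genes it was found in 21.7% of the promoters of genes that rose, 20.5% of those that fell and 17.1% of those not called. A match describes letters in this window and was not tested as a binding site.

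Most adult fast fibre genes were higher in quadriceps. Of 24 tested, 16 rose and none fell (median log2 change 1.85), and all 24 were above background in all 6 samples. Myh2, the IIa myosin heavy chain of fast oxidative fibres, stood at 0.89, 1.46 and 2.87 in the myotubes and 10.01, 6.98 and 8.23 in quadriceps, a 102-fold rise (adjusted p from limma 4.2e-06). Myh4, the IIb myosin heavy chain of the fastest fibres, was already well expressed in culture at 8.23, 7.16 and 6.98 and stood at 10.25, 10.43 and 10.71 in quadriceps, an 8.03-fold rise (adjusted p 0.0031). Myh1, the IIx myosin, overlapped between the groups, with a change of -0.06 (adjusted p 0.94).

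Regulators and enzymes of the fast fibre were among its largest rises. Mybpc2, the fast myosin-binding protein C, rose 66.7-fold, from 4.61, 2.65 and 2.67 to 8.57, 9.61 and 9.93. The calcium buffer parvalbumin, Pvalb, rose 49.1-fold, the skeletal light chain kinase Mylk2 48.7-fold and the AMP deaminase Ampd1 37.5-fold. The fast alpha actinin Actn3 rose 7.13-fold. Skeletal actin and most fast troponins did not pass the test: Acta1 differed by 0.94 (adjusted p 0.15), Tnni2 by 0.92 (0.24) and Tnnc2 by 0.39 (0.67). Tnnt3 rose by 1.38 with an adjusted p of 0.027, a call that was lost under 8 of the 17 alternative settings. With the C57BL/6J quadriceps sample alone fewer fast fibre genes were called higher, and Ckm and Myh4 were not among them. The change of Ckm was 3.18 there, against 3.69 in the main fit. With single samples left out, 12 to 16 of the 24 were called higher.

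In several proteins an early or general form fell while its adult muscle form rose. The brain type creatine kinase Ckb stood at 5.27, 5.18 and 4.88 in the myotubes and 0.6, -0.25 and -0.23 in quadriceps, a 33.6-fold fall. The muscle type Ckm, which regenerates ATP at the sarcomere, stood at 7.05, 6.1 and 5.47 against 9.39, 9.96 and 10.34, a 12.9-fold rise (adjusted p from limma 0.003). Both enzymes of creatine synthesis fell, Gamt 7.84-fold and Gatm 7.55-fold, and the creatine transporter Slc6a8 rose 2.6-fold.

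A pair of translation genes and a pair of ribosomal genes did the same. Eef1a1, the general elongation factor, fell 9.61-fold, and Eef1a2, the form of mature muscle and neurons, rose 250-fold, from -2.03, -2.39 and -1.6 to 5.64, 6.08 and 6.18. The ribosomal protein gene Rpl3 fell 6.75-fold and its muscle paralog Rpl3l rose 121-fold, from 1.09, -0.06 and -0.16 to 6.95, 7.1 and 7.59. These were the only 2 genes of a list of 30 translation factors and ribosomal proteins to rise, and 6 fell (median log2 change -0.65). Without myotube replicate 3 the number that fell was 12. Single members of the ribosomal families have pseudogenes that a probe could also detect.

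**Figure D2:**
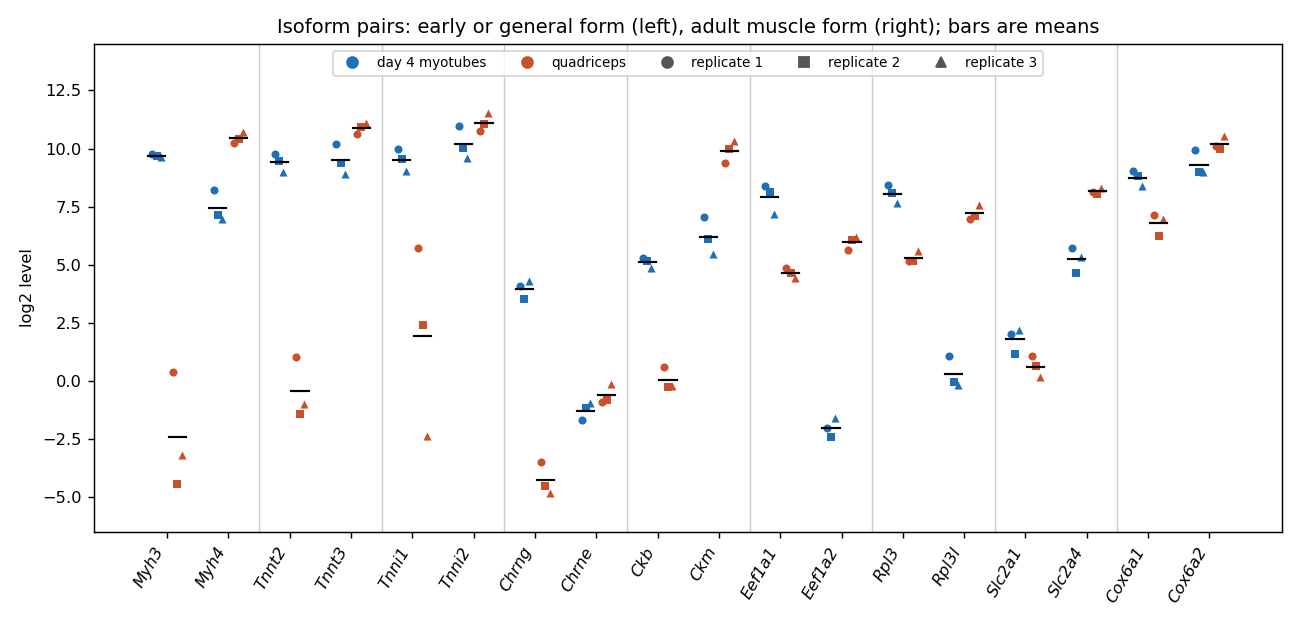
Log2 level per sample of 9 isoform pairs, the early or general form on the left of each pair and the adult muscle form on the right, in day 4 myotubes (blue) and quadriceps (orange). Symbols mark replicates 1 to 3 and bars the mean, and the early forms fell in Myh3, Tnnt2, Tnni1, Chrng, Ckb, Eef1a1, Rpl3, Slc2a1 and Cox6a1 while Chrne, Tnni2 and Cox6a2 did not pass the test.

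Slow fibre genes moved in different directions, and the quadriceps samples differed widely among themselves in them. Of 18 tested, 3 rose and 7 fell (median log2 change -1.52). Tnnt1, the slow troponin T, stood at 10.34, 9.53 and 9.19 in the myotubes and 8.5, 5.9 and -0.22 in quadriceps replicates 1, 2 and 3. Slow troponin I, Tnni1, stood at 9.97, 9.55 and 9.04 against 5.73, 2.4 and -2.36. Slow troponin C, Tnnc1, stood at 8.95, 8.93 and 8.09 against 5.38, 2.28 and -4.47. In each of these genes quadriceps replicate 1 was the highest of its group and replicate 3 the lowest, and all lay below the myotubes.

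The falls were 31.1-fold for Tnnt1 (adjusted p from limma 0.006) and 194-fold for both Tnni1 (1e-04) and Tnnc1 (0.00061), and Tnnc1 was above background in 2 of the 3 quadriceps samples. The call of Tnnt1 was lost when only the 2 groups were fitted and with quadriceps replicate 1 alone. Myh7, the slow myosin heavy chain, stood at 4.29, 6.54 and 7.2 against 8.92, 6.1 and -3.09, so the quadriceps samples lay above, within and below the myotubes. Its change of -2.03 was not called (adjusted p 0.43), and it was called lower without quadriceps replicate 1.

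Myl3, the slow and ventricular light chain, was the exception with the largest change. It stood at -3.16, -2.73 and -2.43 in the myotubes, above background in 2 of the 3, and at 10.11, 7.05 and 4.84 in quadriceps, a log2 change of 10.11 (adjusted p 3.5e-08). Its order among the quadriceps samples was that of the slow troponins, although its change had the opposite sign. Fhl1, a LIM domain protein, rose 12.1-fold. Car3, the carbonic anhydrase of slow fibres, rose 154-fold to 7.91, 8.09 and 9.49, with quadriceps replicate 3 highest. Car3 is also abundant in fat, and adipocyte markers were highest in the same sample, as described below. The calcium pump Atp2a2, the form of slow and cardiac muscle, stood at 5.01, 2.39 and 0.48 in quadriceps replicates 1, 2 and 3 and fell 9.92-fold, and with replicate 1 alone its change was -0.93 and not called (adjusted p 0.19). Casq2, the cardiac calsequestrin, fell 38-fold.

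The list's median depended on the quadriceps sample. It was -2.7 without replicate 1, with 12 genes lower, and -0.62 without replicate 3, and with the C57BL/6J sample alone it was 0.82, with 5 genes higher and 4 lower. Within slides, where each slide held 1 sample of each group, the medians were 1.16, -1.66 and -1.66, the first being that of quadriceps replicate 1. The strain label and the individual sample cannot be told apart here, since 1 sample carries the C57BL/6J label.

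**Figure D3:**
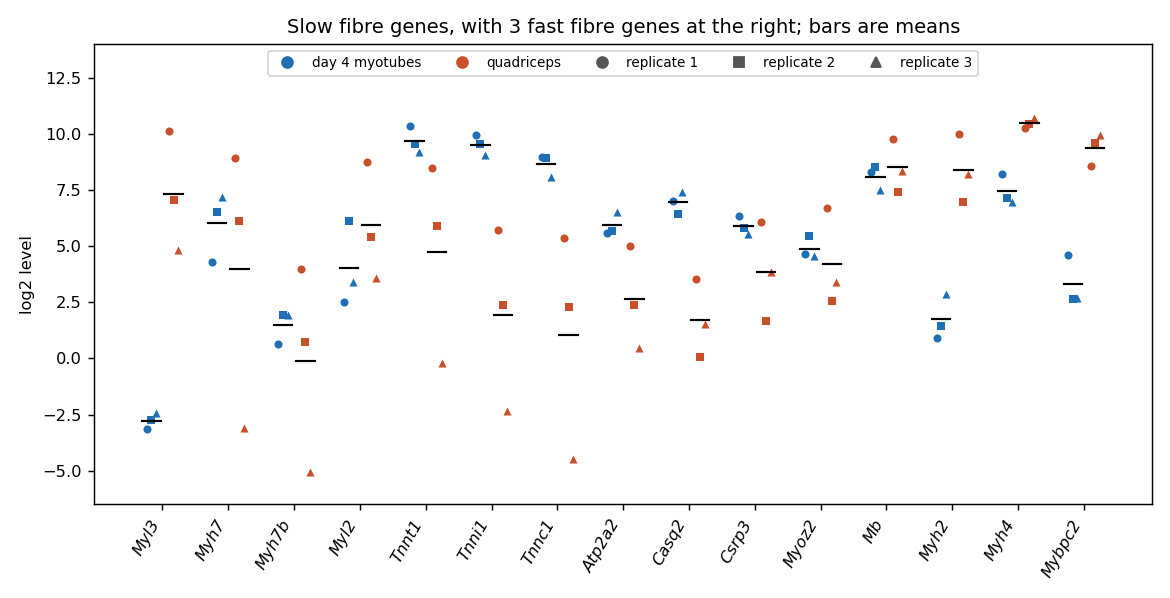
Log2 level per sample of 12 slow fibre genes and, at the right, the fast fibre genes Myh2, Myh4 and Mybpc2, in day 4 myotubes (blue) and quadriceps (orange). Symbols mark replicates 1 to 3 and bars the mean, and for Myh7 the quadriceps samples span 8.92 to -3.09 while for Myh4 they span 10.25 to 10.71.

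The quadriceps samples were also compared by strain label, with the lone C57BL/6J sample assumed to vary like the other groups. Of 21667 genes, 6 were higher in it and none lower by the same rule, 0.0277% of the genes tested for the higher ones, while 787 had an unadjusted p under 0.05. The 6 genes were Myh6, Myh3, Bdh1, Spsb4, Myom3 and the transcript ENSMUST00000094504. The cardiac and slow myosin Myh6 was 25-fold higher (adjusted p from limma 0.019) at 1.93 against -2.7 and -2.73. Bdh1, a ketone body enzyme, was 17.9-fold higher at 5.48 against 1.23 and 1.4, and Myom3, an M band protein, 11.7-fold higher at 6.17 against 2.15 and 3.1. Spsb4 was 11.9-fold higher. With quantile normalization 38 genes were higher and 5 lower, and with no filter on dim signals 3 were higher.

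Genes of excitation and calcium release were more often higher than lower in muscle. Of 40 genes tested, 18 rose and 5 fell (median log2 change 1.32). Ryr1, the calcium release channel of skeletal muscle, rose 3.78-fold, from 6.2, 5.4 and 6.29 to 7.22, 8.1 and 8.33 (adjusted p from limma 0.00083). Trdn, triadin, which anchors that channel, rose 9.51-fold, and the fast calcium pump Atp2a1 rose 5.41-fold. The chloride channel Clcn1, which steadies the resting membrane, rose 15.1-fold, from -1.78, -2.66 and -2.63 to 1.16, 1.9 and 1.6. The sodium channel Scn4a rose 3.56-fold, the potassium channel Kcna7 8.09-fold and the sodium pump subunit Atp1b2 7.27-fold.

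Of the genes that fell, Ryr3 fell 7.83-fold and Casq2 38-fold, and the caveolin Cav3 fell 6.62-fold, from 9.05, 8.33 and 8.74 to 6.08, 5.77 and 6.09. The voltage sensor Cacna1s, with a change of 1.02 (adjusted p 0.16), and Casq1, with 1.51 (0.21), were not called. Casq1 was called with the authors' values and when only the 2 groups were fitted. With the C57BL/6J quadriceps sample alone 6 genes of this list were called higher, and the calls of Ryr1 (adjusted p 0.12), Trdn (0.074), Atp2a1 (0.11), Scn4a (0.16) and Ryr3 (0.14) were lost. The call of Ryr3 was also lost without myotube replicate 3.

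Of 39 genes of the Z disc, the M band and the giant scaffold proteins, 15 rose and 4 fell (median log2 change 0.67). Tmod4, which caps thin filaments, rose 65.4-fold and Xirp2, an actin-binding repeat protein of the Z disc, 46-fold. Myoz1, a calcineurin-binding Z disc protein, rose 24.3-fold. Titin, Ttn, rose 6.34-fold, from 4.94, 6.01 and 7.42 to 8.62, 8.8 and 8.95, and nebulin, Neb, 4.4-fold. Myom3, the M band protein of slow and intermediate fibres, fell 9.26-fold, with quadriceps replicate 1 near the myotubes. With the C57BL/6J quadriceps sample alone 6 genes were called higher.

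The dystrophin glycoprotein complex showed no shared direction. Of 21 genes tested 3 rose and 4 fell, with a median of -0.18 that was 0.13 without myotube replicate 3. Dmd, dystrophin, stood at -0.92, 0.24 and 2.41 against 2.45, 2.9 and 2.86, a change of 2.16 with a standard error of 1.24 that was not called (adjusted p 0.19). Utrn, its fetal homologue, changed by -0.79 (adjusted p 0.27). Nos1, the neuronal nitric oxide synthase that the complex holds at the membrane, was above background in no myotube sample and stood at -0.62, 0.22 and 0.22 in quadriceps, a rise of at least 11.9-fold.

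Both Myog and Myod1 fell, while the wider list of muscle transcription factors had no shared direction. Myog, the transcription factor that starts terminal differentiation, stood at 6.93, 7.81 and 6.78 in the myotubes and 0.33, -0.94 and 1.51 in quadriceps, a 117-fold fall (adjusted p from limma 2.2e-08). Myod1, the myoblast determination factor, stood at 4.8, 5 and 4.56 against 1.42, 1.56 and 2.27, an 8.19-fold fall. Myf6, the member of the family found in adult fibres, stood at 3.59, 0.09 and 2.13 against 4.13, 4.56 and 4.76. Its difference of 2.54 was not called (adjusted p 0.085). Under 5 of the 17 alternatives it was called, among them the replicate number as a block (0.036). Myf5 was not above background in any of the 6 samples and was not tested.

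Of 23 myogenic and muscle transcription factors tested, 4 rose and 3 fell, with a median of 0.26. Vgll2, a cofactor of the TEAD factors in muscle, rose 92.5-fold, from 0.13, -1.19 and 1.08 to 6.93, 5.47 and 7.21, and Tead4 fell 22.7-fold. Maf rose 12.8-fold, and Sox6, a repressor of slow fibre genes, rose 11.6-fold, with 1 of 3 myotube samples above background. Mef2c, which acts with the myogenic factors, overlapped between the groups, with a change of -0.36 (adjusted p 0.65).

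The 2 muscle-specific fusion proteins showed some of the largest falls of all genes. Mymk, myomaker, stood at 7.51, 7.42 and 7.75 in the myotubes and -1.7, -2.89 and -3.22 in quadriceps, above background in 2 of the 3, a log2 change of -10.17 (adjusted p from limma 6.8e-10). Mymx, myomixer, stood at 6.17, 7.1 and 6.05 against -3.23, -5.75 and -5.02, above background in 1 of the 3, a change of -11.11. Of 21 fusion genes tested 13 fell and 2 rose, with a median of -1.78. The cadherin Cdh2 fell 59.3-fold, the receptor Cdon 12.2-fold and the adhesion molecule Jam3 12.5-fold. The 2 that rose were Stab2, with 1 of 3 myotube samples above background, and Vav1, at least 4.23-fold, which are known from endothelium and from leukocytes. The markers of both those cell types were higher in quadriceps, and their part in these 2 rises was not tested.

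Most of the satellite cell markers tested were lower in whole muscle than in the culture. Of 19 on the array 15 were tested, the rest being too dim, and 10 fell and 2 rose, with a median of -1.98. The mean of Itga7 was 6.91 in proliferating myoblasts and 8.52 in day 4 myotubes, and that of Pax7 2.72 and 0.51. How far each gene reports satellite cells here was not tested. Pax7, which marks satellite cells, stood at 0.68, 0.87 and -0.02 in the myotube cultures and -1.42, -1.89 and -1.9 in quadriceps, a 4.74-fold fall (adjusted p from limma 0.00032). Megf10 fell 66.1-fold, M-cadherin Cdh15 10.1-fold, the integrin Itga7 7.94-fold and the chromatin protein Hmga2 9.51-fold, with Hmga2 above background in 2 of 3 quadriceps samples. The 2 that rose were Cd34, 24.8-fold, and Hey1, 2.89-fold, and Cd34 is also on the list of fibroblast markers described below.

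Many genes of fuel supply were higher in quadriceps, while few genes of the respiratory chain passed the test. Of 44 genes of glycolysis and glycogen tested, 25 rose and 7 fell (median log2 change 1.76). Pfkfb1, which makes the activator of phosphofructokinase, stood at -1.95, -3.16 and -2.49 in the myotubes and 4.51, 4.26 and 4.14 in quadriceps, a 114-fold rise (adjusted p from limma 4.7e-10). Ppp1r3c, which targets a phosphatase to glycogen, rose 72.6-fold, and the phosphorylase kinase subunit Phkg1 47.7-fold. Fbp2, the muscle fructose bisphosphatase, stood at 1.51, 2.23 and 3.23 in quadriceps, and 1 of 3 myotube samples was above background.

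Of the glucose transporters and hexokinases, the insulin-responsive transporter Slc2a4 stood at 5.71, 4.65 and 5.35 against 8.12, 8.05 and 8.29, a 7.54-fold rise (adjusted p 0.0012), and hexokinase 2, Hk2, rose 11.1-fold. The general transporter Slc2a1 fell 2.25-fold (0.0041), a call lost under 5 of the 17 alternatives, and Hk1 changed by -0.88 (0.14). With the mean of its probes or without myotube replicate 3, Hk1 was called lower. The muscle forms Pygm, glycogen phosphorylase, and Pfkm, phosphofructokinase, rose 4.35-fold and 3.36-fold. Several core glycolytic enzymes did not pass the test: Aldoa differed by 0.37 (adjusted p 0.48), Gapdh by 0.33 (0.55) and Eno3 by 0.77 (0.14). Among the genes that fell were forms known from other tissues, Eno1, 6.09-fold, Aldoc, 5.72-fold, and Pgam1, 3.81-fold. The call of Pgam2, which rose by 1.65 (adjusted p 0.044), was lost under 9 of the 17 alternatives. With the C57BL/6J quadriceps sample alone the calls of Pygm (0.14), Pfkm (0.15) and Aldoc (0.074) were lost.

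Of 41 genes of fatty acid uptake and oxidation 22 rose and 1 fell, with a median of 1.31. Lpl, lipoprotein lipase, which frees fatty acids from blood lipoproteins, stood at -0.09, -0.38 and 1.12 against 7.02, 4.94 and 6.09, a 55.9-fold rise (adjusted p from limma 5.6e-08). Acacb, which sets entry into mitochondria through malonyl-CoA, rose 31.1-fold, and Cpt1b, the muscle carnitine palmitoyltransferase, rose 19.8-fold, from 0.62, 0.21 and 1.03 to 5.02, 4.72 and 5.06. The lipid droplet proteins Plin4 and Plin5 rose by 8.72 and 7.7 on the log2 scale, with 2 and 1 of the 3 myotube samples above background. Fabp4, the fatty acid carrier of fat and endothelium, rose at least 1250-fold. Markers of adipocytes and endothelium were higher in quadriceps, and their part in the rises of Lpl, Fabp4 and Plin4 was not tested. The 1 gene that fell was the uncoupling protein Ucp2, 7.94-fold.

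The tricarboxylic acid cycle followed with a smaller change. Of 25 genes 7 rose and none fell, with a median of 0.7. Dlat, a subunit of pyruvate dehydrogenase, rose 3.34-fold, Suclg2 3.16-fold, Idh3b 2.99-fold and Ogdh 2.98-fold. Of 37 complex I genes none rose and 1 fell, Ndufab1, 2.97-fold, with a median of 0.47, and this call was lost with the C57BL/6J quadriceps sample alone (adjusted p 0.082). Of 25 genes of complexes III and V none rose and 1 fell, the ATP synthase inhibitor Atpif1, 5.11-fold, with a median of 0.17.

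Of 22 cytochrome oxidase genes 2 were higher and 3 lower, which is below the shares of 15.2% and 16.9% over all genes tested. No isoform pair listed had both members called. The general subunits Cox6a1 and Cox8a fell 3.92-fold and 3.76-fold. The muscle subunit Cox7a1 rose 4.96-fold (adjusted p 0.022), a call lost under 5 of the 17 alternatives, and Cox6a2 and Cox8b differed by 0.91 (0.27) and 1.47 (0.068). The medians of complexes III and V and of cytochrome oxidase were below 0 without myotube replicate 3, at -0.18 and -0.07. Within the 3 slides the medians of complex I were 0.35, -0.34 and 1.31, so the direction of this list differed between slides.

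Most coactivators and nuclear receptors of the list on oxidative metabolism were higher in quadriceps. Of 26 tested 15 rose and 1 fell, with a median of 1.16. Perm1, a regulator of mitochondrial and contractile genes downstream of PGC-1, rose 44.3-fold, from 0.39, -1.15 and -0.19 to 5.95, 4.29 and 5.22. Rora rose 20.5-fold and the activity-responsive receptor Nr4a1 9.66-fold.

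Ppargc1a, which encodes PGC-1 alpha, stood at 1.54, 1.33 and 2.16 against 3.55, 2.99 and 2.65, a 2.61-fold rise (adjusted p from limma 0.035). Its call and that of Esrrg, 6.47-fold higher (0.044) with 2 of 3 myotube samples above background, were each lost under 6 of the 17 alternatives. The 1 that fell was Esrrb, 3.48-fold. The list's count of higher genes was 8 without myotube replicate 3 and 9 without quadriceps replicate 2.

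Of 18 clock genes and clock outputs tested 6 rose and none fell, with a median of 0.89, and the time of day of collection is not given for either group. Arntl, the core activator, rose 4.06-fold, from -0.13, 0.2 and 0.81 to 1.48, 2.38 and 3.08 (adjusted p from limma 0.00075), a call lost with the C57BL/6J quadriceps sample alone (0.13). The output factor Hlf rose 23.7-fold, with 1 of 3 myotube samples above background. Dbp, with a change of 0.46 (0.54), and Per1, with 0.3 (0.47), were not called. Nr1d1 overlapped between the groups, at 1.43 (0.074), and Per2 was not tested.

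Genes under FoxO and glucocorticoid control were mixed, with 11 of 29 higher and 6 lower and a median of 0.53. Zbtb16 stood at 4.66, 4.94 and 5.36 in quadriceps against -2.96, -3.45 and -3.55, a log2 change of 8.31 with 2 of 3 myotube samples above background (adjusted p from limma 6.8e-10). Fbxo32, the ubiquitin ligase atrogin-1, rose 22.6-fold, from 0, -0.48 and 0.43 to 2.9, 5.43 and 5.11. Trim63, the ligase MuRF1, rose 3.01-fold (0.038), a call lost under 6 of the 17 alternatives. Nr3c1, the glucocorticoid receptor, rose 5.1-fold. Foxo3 was above background in no quadriceps sample, a fall of at least 4.28-fold.

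Most genes of sterol synthesis were lower in quadriceps. Of 25 genes tested 15 fell and none rose, with a median of -1.73, and the 15 were above background in all 6 samples. Scd2, a fatty acid desaturase, stood at 6.42, 7.09 and 7.1 in the myotubes and 2.61, 2.07 and 1.68 in quadriceps, a 26.8-fold fall (adjusted p from limma 8.8e-08). The squalene epoxidase Sqle fell 16.8-fold, Dhcr7, which completes cholesterol, 12.7-fold, and Nsdhl 8.13-fold. Srebf2, the transcription factor that governs the pathway, fell 6.74-fold. The sterol response element TCACNCCAC was found in 0 of the 10 matched promoters of sterol genes that fell and in 1 of 17 of those tested, against 1.44% of all promoters. It was found in 1.43% of the promoters of all genes that rose, 1.54% of those that fell and 1.38% of those not called.

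Genes of the amino acid and unfolded protein responses were more often lower than higher. Of 27 genes tested 13 fell and 1 rose, with a median of -0.88. Asns, asparagine synthetase, stood at 5.7, 7.22 and 6.63 against 0.38, 0.18 and 1.61, a 55.5-fold fall (adjusted p from limma 2.6e-08). The serine synthesis enzymes Psat1 and Phgdh fell 61.6-fold and 56.4-fold, and the amino acid transporter Slc7a5 38.2-fold, with 2 of 3 quadriceps samples above background. Fgf21, a secreted stress hormone, stood at 2.26, 6.28 and 4.4 in the myotubes and was above background in no quadriceps sample, a fall of at least 233-fold. The 1 that rose was the lipoprotein receptor gene Vldlr, 29.8-fold.

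**Figure D4:**
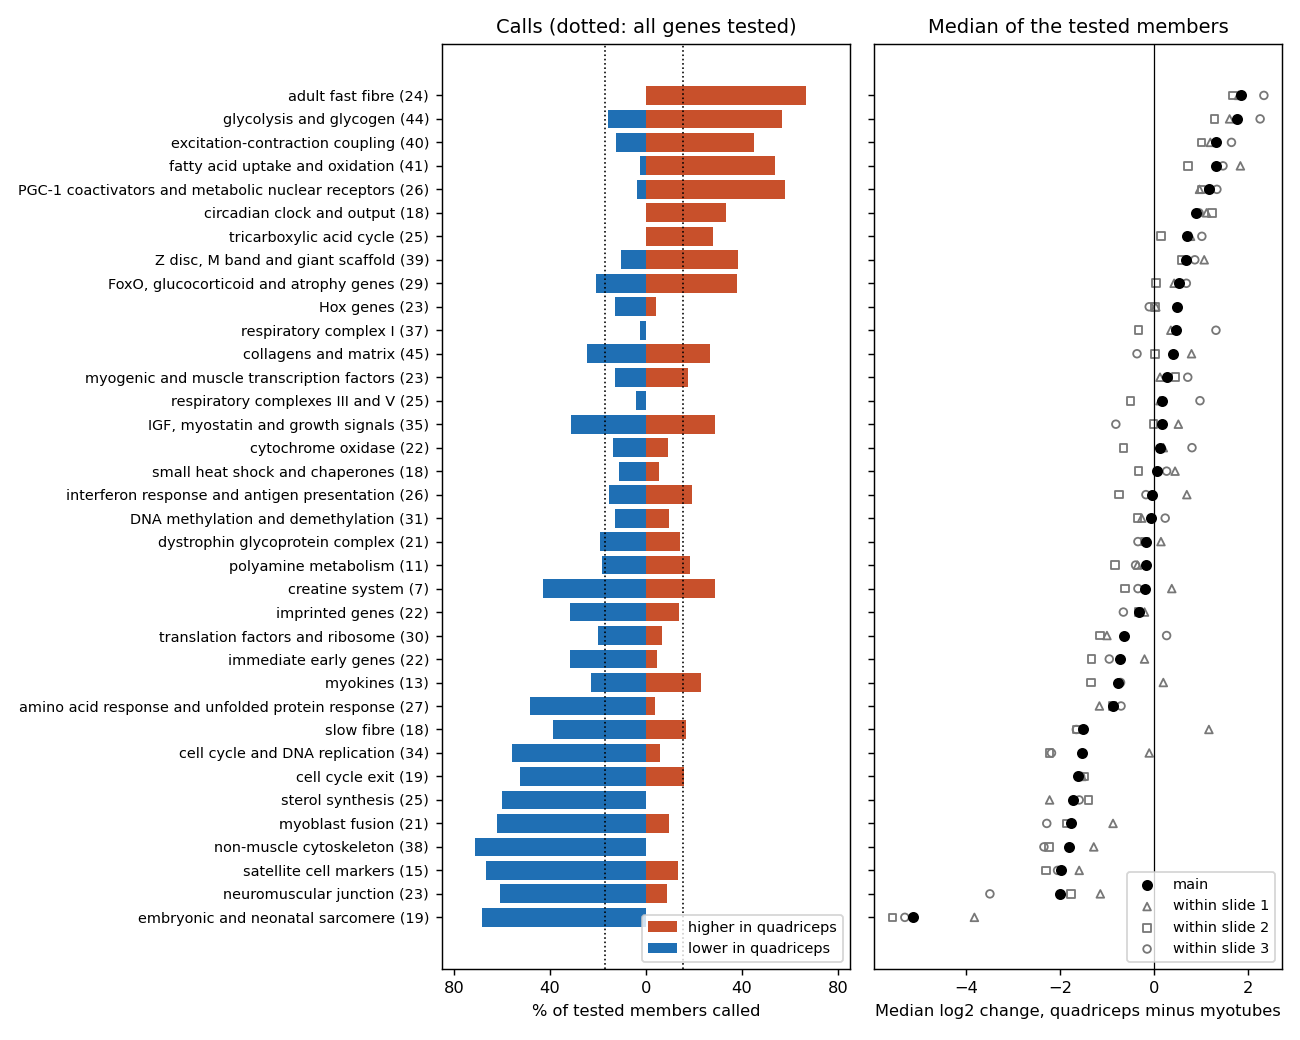
For each of 36 gene lists, with the number of genes tested in brackets, the percent of tested genes called higher (orange) or lower (blue) in quadriceps (left) and the median log2 change of the list (right, filled), with the medians within slides 1 to 3 as open symbols. Dotted lines mark 15.2% and 16.9%, the shares over all genes tested, and the embryonic sarcomere list stands lowest at -5.13 while the slow fibre list differs between slides at 1.16, -1.66 and -1.66.

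Cell cycle genes were lower in muscle, and so were most genes of cell cycle exit. Of 34 cell cycle and replication genes tested 19 fell and 2 rose, with a median of -1.55. The ribonucleotide reductase subunit Rrm2 stood at 2.96, 2.92 and 2.89 in the myotube cultures and -0.55, -2.32 and -2.08 in quadriceps, a 23.7-fold fall (adjusted p from limma 1e-05). Ccnb1 fell at least 7.51-fold, Cdc20 14.6-fold, with 1 of 3 quadriceps samples above background, and Birc5 13-fold. Mki67 was uneven among the myotubes, at -0.73, -2.58 and 2.32, and was not called (adjusted p 0.077). In Ccnb1, Cdc20, Birc5 and Mki67 myotube replicate 2 was the lowest of its group and quadriceps replicate 1 the highest of its group. Slide 1 held both samples, and there the median of the list was -0.11 against -2.23 and -2.19 on the others.

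Of 19 genes of cell cycle exit 10 fell and 3 rose, with a median of -1.62. Cdkn1a, the inhibitor p21 that holds myotubes out of the cycle, stood at 8.41, 8.03 and 7.69 against 0.82, 0.52 and 2.34, a 112-fold fall (adjusted p 8.8e-09). Cdkn2a, which encodes p16 and Arf and is known to rise in cells kept in culture, stood at 4.91, 3.02 and 3.6 and was above background in 2 of 3 quadriceps samples, with a log2 change of -6.98. Ccnd3, a cyclin kept by differentiating muscle, fell 33-fold. The retinoblastoma relative Rbl2 rose 3.22-fold, with 2 of 3 myotube samples above background, and Ccng1 2.6-fold.

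The non-muscle cytoskeleton had the largest share of genes called lower of the 45 lists. Of 38 genes tested 27 fell and none rose, with a median of -1.81, and the 27 were above background in all 6 samples. Tmsb10, an actin monomer binding protein, stood at 10.11, 9.6 and 8.86 in the myotubes and 3.46, 3.02 and 3.32 in quadriceps, a 76.5-fold fall (adjusted p from limma 2.4e-09). The tubulins Tubb6 and Tuba1a fell 29.8-fold and 17.7-fold, and the intermediate filament genes Nes and Vim 19.4-fold and 4.48-fold. Actb, cytoplasmic actin, was not called and overlapped between the groups: it stood at 8.14, 7.33 and 8.19 against 7.84, 7.94 and 7.88, a change of 0 (adjusted p 1).

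Growth signals changed in both directions, with 10 of 35 higher and 11 lower. Igf2, a fetal growth factor, stood at 5.26, 3.7 and 4.06 in the myotubes and was above background in 1 of 3 quadriceps samples, with a log2 change of -7.34 (adjusted p from limma 1.2e-08). H19, the imprinted RNA beside it, fell 9.72-fold, a call lost with the C57BL/6J quadriceps sample alone (0.082). Mstn, myostatin, which limits muscle mass, was above background in 1 of 3 myotube samples and stood at 1.46, 2.98 and 3.04 in quadriceps, a log2 change of 5.53 (adjusted p 0.00034). Its inhibitors went the other way: Fst, follistatin, fell 27.8-fold, from 5.1, 6.03 and 6.11 to 0.71, 1.21 and 0.94, and Fstl3 11.9-fold. The count of lower genes was 7 without myotube replicate 3.

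The enzymes of DNA methylation, the subject of the wider study, mostly did not pass the test. Of 31 genes 3 rose and 4 fell, which together is 7 of 31 against 32.1% of all genes tested, with a median of -0.07. Dnmt3a, a de novo methyltransferase, stood at 2.32, 1.31 and 1.33 against 3.62, 3.46 and 3.35, a 3.54-fold rise (adjusted p from limma 0.0029). Dnmt1, the maintenance enzyme, changed by -0.6 (0.13) and Dnmt3b by -0.08 (0.87). Uhrf1, which recruits Dnmt1 at replication, fell 7.47-fold, with 1 of 3 quadriceps samples above background, a call lost with the C57BL/6J quadriceps sample alone (0.19). Of the TET enzymes, which oxidise methylcytosine, Tet2 changed by 0.68 (0.48) and Tet3 by 0.51 (0.27). The probes of Tet1 disagreed: the brightest gave a rise of 1.81 (0.00081), the others -1.48 and -1.96, and their mean -0.54 (0.25), so no direction is given for Tet1.

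Markers of other cell types were among the largest rises. Of 20 endothelial markers 19 rose, with a median of 4.55, or 3.77 with genes absent from the cultures at their lower bound. Their summed level relative to the 75th percentile was 44.4, 21.3 and 11.7 in the myotubes and 274, 194 and 146 in quadriceps. Pecam1, which marks all endothelium, stood at -3.41, -2.58 and -2.63 against 0.32, -0.63 and -0.51, a 6.06-fold rise with 2 of 3 myotube samples above background (adjusted p from limma 0.00057). Flt1, a receptor of vascular growth factor, rose at least 241-fold, and Kdr was the 1 marker not called, with a change of 0.01.

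Red blood cell genes were low in the cultures. Of 7 tested 6 rose, and the summed level was 0.451 to 0.682 in the myotubes and 596 to 811 in quadriceps. Hbb-bt, a beta globin gene, rose at least 665-fold. Of 19 leukocyte markers 13 rose and none fell, with a median of 3.67, and the summed level was 50 to 75.5 against 79.9 to 114. Ptprc, the common leukocyte antigen, was not tested. H2-Eb1, a class II antigen gene, rose at least 114-fold.

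Of 17 markers of fibroblasts and fibro-adipogenic progenitors 14 rose and 1 fell, with a median of 4.68, and the summed level was 62.1 to 117 in the myotubes against 582 to 617 in quadriceps. Pdgfra, their defining receptor, was above background in no myotube sample and stood at 0.6, 0.43 and 0.9 in quadriceps, a rise of at least 18.7-fold. Dcn, the matrix proteoglycan decorin, stood at 8.2, 8.14 and 7.62 in quadriceps, with 2 of 3 myotube samples above background and a log2 change of 11.34 (adjusted p from limma 2e-09). Of 45 collagen and other matrix genes 12 rose and 11 fell. Col1a2 rose 171-fold, to 8.51, 6.65 and 6.02, and Lum at least 95.1-fold, while Timp1, an inhibitor of matrix proteases, fell 118-fold, from 5.48, 5.98 and 7.07 to 1.6, -1.87 and -1.84.

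Adipocyte and tendon markers were uneven among the quadriceps samples. Of 14 adipocyte markers 12 rose, and the summed level was 559, 435 and 1550 in quadriceps replicates 1, 2 and 3 against 16.9 to 29.5 in the myotubes. Cfd, adipsin, stood at 6.26, 6.02 and 9.2 and rose at least 1750-fold, and Adipoq, adiponectin, at 2, 2.09 and 4.81, at least 97.2-fold. Replicate 3 was the highest in both. Tendon genes ran the other way, with Thbs4 at 5.64, 4.59 and 3.09 and Kera at 2.66, 1.18 and -0.48. Scx, the tendon transcription factor, was high in the myotube cultures at 7.49, 8.25 and 7.11 and fell 21-fold, and the summed tendon level was 141 to 307 in the myotubes against 102, 51.5 and 22.1 in quadriceps, although 6 of the 8 tendon markers tested rose.

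Smooth muscle and nerve markers were mixed. Of 15 smooth muscle and pericyte markers 8 rose and 1 fell, with a median of 1.19. Their mean log2 level was -0.33 to 0.38 in the myotubes against 1.84 to 2.53 in quadriceps. The summed level went the other way, at 530 to 656 against 293 to 327. A sum weighs high genes most. Des and Acta2, also on the embryonic sarcomere list, were the highest of these markers in the myotubes. Of 13 markers of Schwann cells and nerve 7 rose and 2 fell, with a median of 1.29, and the summed level was 5.62 to 12.6 against 13.4 to 23.4.

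The muscle fibre markers were present in both groups, as the labels state. Their summed level was 2330 to 4430 in the myotubes and 7480 to 10000 in quadriceps, and all 10 were above background in all 6 samples. Of these 10 genes 5 rose, with a median of 1.45. The share of RNA that fibres give cannot be read from these arrays, and the part of the other cell types in the changes of muscle genes was not tested.

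**Figure D5:**
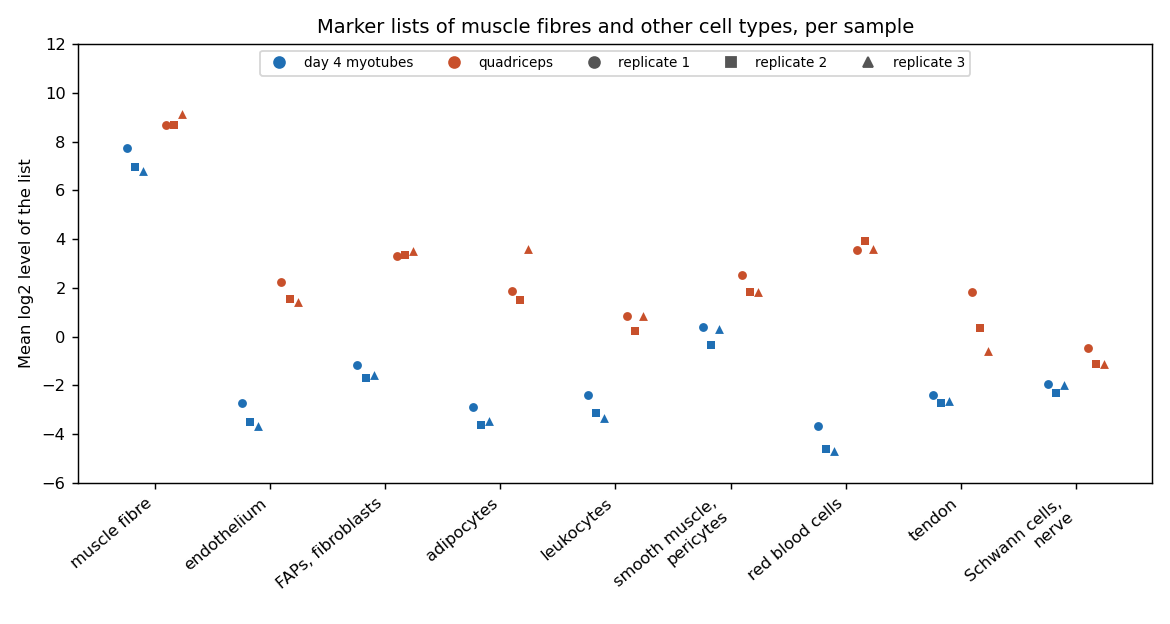
Mean log2 level per sample of marker lists for muscle fibres and 8 other cell types in day 4 myotubes (blue) and quadriceps (orange), with symbols for replicates 1 to 3. The quadriceps samples lie above the myotubes in every list, and replicate 3 is the highest quadriceps sample for adipocytes and the lowest for tendon.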

How the data were processed

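Total RNA of 6 samples was compared on Agilent arrays. Per the file headers, Agilent Feature Extraction 10.7.3.1 (protocol GE1_107_Sep09) made the processed signal intensity by background subtraction and detrending, and its deposited flags, 0 or 1, mark spots well above background or out of line (unit other). The authors also deposited log2 values whose normalization is not stated.

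Control spots and spots out of line were removed, values were put on a log2 scale, and the 75th percentile of each array was subtracted. The 55681 probes gave 36095 gene names, 21983 of them known to RefSeq. A gene with several probes took the values of the brightest. A gene entered the test if all 3 samples of either group were well above background, which left out 17545. limma 3.58.1 in R 4.3.3 fitted 7 group means to 21 samples. All groups share 1 spread per gene, with 14 residual degrees of freedom. The title numbers 21, 26 and 28 recur in the proliferating myoblasts and in the myotubes of days 1, 2 and 4. This fit did not model that pairing, so its degrees of freedom may not be independent. The 2 arrays of E14tg2 were averaged and the NOD sample was left out. For a gene above background in no sample of a group, the lower bound uses, per array, the higher of its own signal and the lowest signal well above background.

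The lists, pairs and members were chosen with earlier results of these data known, and no list was given a test. Named genes were the 10 largest measured folds, where the groups did not overlap, and the 10 largest bounds each way. Also named were the 4 largest called changes of each list, both members of each isoform pair, a fixed set of regulators and the leading strain genes. Outside this rule, and chosen after their values were seen, are Acacb, Acta2, Actn3, Ampd1, Ankrd1, Atp1b2, Cacna1s, Ccng1, Cd24a, Cdon, Chrnb1, Des, Esrrb, Fhl1, Foxo3, Fstl3, Gapdh, Hdac4, Hey1, Itga7, Jam3, Kcna7, Kdr, Lrp4, Musk, Myl6b, Ncam1, Neb, Nr3c1, Rapsn, Rbl2, Runx1, Scx, Slc6a8, Sox6, Srebf2, Tagln, Ttn, Tuba1a, Ucp2, Vav1, Vim and Vldlr.

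Same-numbered samples deviated together at r of 0.118, 0.278 and 0.257 across genes, which are not independent. The replicate number was therefore also fitted as a block, although the titles do not pair the samples in that way. The number 28 stands in the title of myotube replicate 3 and, as Y28, in that of quadriceps replicate 2. Whether these samples share an origin is not stated. Each of the 3 slides, scanned on 1 day, held 1 sample of each group. The fit was tested on simulated data. Some genes are not reported here.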

Additional observations from a re-analysis of the deposited data

How the results depend on the processing

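The number of genes higher in quadriceps was 1549 where every sample of both groups had to be above background and 1579 with the C57BL/6J quadriceps sample alone, against 2827. Under each other alternative (normexp background correction, quantile normalization, the authors' values, no filter, mean of all probes, slide block, only the 2 groups, proliferating myoblast 1 left out, single samples left out) both counts stayed within 1.5 times. Leaving out 1 sample gave 2434 to 2793 higher and 2741 to 3526 lower genes. With the replicate number as a block 2896 genes were higher and 3191 lower, and of the genes named by the rule only Myf6 changed its call. The comparison of the quadriceps strains gave 43 genes with quantile normalization and 3 with no filter, against 6, and the cause was not tested. Tet1 reversed to -0.54 with the mean of its probes, which disagree. Some genes given as not called passed under alternatives: Myf6 under 5 and Cox8b under 4. Casq1, Hk1, Mki67, Myh8 and Nr1d1 passed under 2 each, and Dmd, Per1, Cox7a2 and Myh7 under 1 each. Of 45 lists, 26 had a median above 0, and 24 to 29 under the alternatives. Lists whose median changed sign under at least 1 alternative include those of slow fibre, creatine, dystrophin, growth signal, DNA methylation, complexes III and V, cytochrome oxidase and tendon genes. Low signal limits genes near background: 481 higher and 294 lower genes have only a bound.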

Other observations

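Immediate early genes and imprinted genes also differed. Of 22 immediate early genes tested 7 were lower in quadriceps and 1 higher, with a median log2 change of -0.73. Egr1, a zinc finger factor induced by growth factors, stood at 4.46, 3.24 and 4.23 in the myotubes and -0.26, -0.92 and -1.11 in quadriceps, a 26.8-fold fall (adjusted p from limma 1.2e-06), and Egr2 fell 17.5-fold, with 1 of 3 quadriceps samples above background. The 1 that rose was Nr4a1. Of 22 imprinted genes tested 7 fell and 3 rose, with a median of -0.33. Mest stood at 2.61, 0.64 and 2.16 against -1, -2.31 and -2.87, and Dlk1 was above background in no myotube sample and rose at least 7.85-fold.

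Mup19, a major urinary protein gene known from liver, was above background in no myotube sample and stood at 4.87, 1.61 and 7.77 in quadriceps replicates 1, 2 and 3, a rise of at least 334-fold. Its paralogs are near-identical, so the gene behind the signal is uncertain. Dusp26, a phosphatase gene, rose at least 609-fold to 5.55, 5.41 and 5.89, and R3hdml fell at least 473-fold from 4.65, 5.73 and 5.63. The quadriceps samples lay close together for these last 2 genes and far apart for Mup19.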
